A study of Rattus norvegicus with 12 samples.

Results

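The genes described here present antigen in the rat. They are the genes of its major histocompatibility complex (MHC), whose symbols begin with RT1-, with the invariant chain gene Cd74, the regulators Ciita and Nlrc5, and the class I machinery genes B2m, Tap1, Tap2, Tapbp, Psmb8 and Psmb9. They were chosen by symbol, and 43 of the 30562 rows of the deposited gene table matched. Of these 43 rows, 35 held 10 or more counts in at least 3 of the 12 samples, and all 35 also passed the count filter of the test. That filter took the group size as the number of samples needed, whichever groups those samples belonged to. The 35 genes comprise 10 class II RT1 genes with 2 class II partners (Cd74 and Ciita), and 16 class I RT1 genes with 7 class I pathway genes. RT1-CE15 and RT1-CE16 each stand in 2 rows with different Ensembl identifiers, and each row is counted as a gene. The 8 rows with fewer counts (RT1-M1-4, RT1-O1, RT1-M1-2, RT1-S2, RT1-M5, RT1-M6-2, RT1-Hb-ps1 and RT1-T18) reached at most 8 counts in any sample and were not tested.

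The samples were stumps of rat sciatic nerve in 4 groups of 3. VP4:2 stumps had a cone-shaped conduit of the form CC4:2 loaded with verteporfin, a compound known to block the pairing of YAP with TEAD transcription factors. CC4:2 stumps had the same form of conduit without the drug, CC4:4 stumps had a second form, and Control stumps are labelled only as controls. The study asked which transcripts accompany pain relief by such conduits and whether YAP, a mechanically regulated transcriptional coactivator, takes part. The labels give no strain, sex, age, time after surgery or treatment of the controls, and do not state if stumps of the same group were from different animals, so the p-values reflect differences among these stumps that can be partly technical.

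MHC class I molecules are found on nearly all nucleated cells and show peptides from the cell's interior to CD8 T cells. Those peptides are cut by the proteasome, carried into the endoplasmic reticulum by the TAP transporter and loaded with the help of tapasin onto a heavy chain paired with beta-2-microglobulin. Class II molecules are found mainly on macrophages, dendritic cells and B cells and show peptides from engulfed material to CD4 T cells, and both sets of genes are induced by interferon gamma, class II through CIITA and class I largely through NLRC5. In injured nerve, class II is known mostly from infiltrating macrophages, and Schwann cells can also carry it.

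The promoters of 26 of the 35 genes, from 250 bases before to 50 bases after the start, were matched by symbol in RefSeq (assembly GRCr8). The stretches printed here were picked because class II promoters are known for an X and Y box module and class I promoters for a kappaB site beside an interferon response element. Capitals mark a motif found by exact search on both strands, all sequences run 5′ to 3′ toward the gene, and a match is a description of the letters and not evidence of binding. The letters searched are short cores of those known elements, chosen with the matches in view. The class II chain genes RT1-Da, at chr20:4515275-4515394 on the plus strand, and RT1-Ba, at chr20:4576917-4577036 on the plus strand, are shown from 140 to 21 bases before the start, with capitals for the X1 box letters CCTAGCAAC, the CRE letters TGACGTCA and the Y box letters CTGATTGG. RT1-DMa, at chr20:4712356-4712475 on the minus strand, is shown over the same span with capitals for TGATGTCA, searched as a variant of the CRE letters, and for CCAAT read on the other strand as ATTGG.
RT1-Da: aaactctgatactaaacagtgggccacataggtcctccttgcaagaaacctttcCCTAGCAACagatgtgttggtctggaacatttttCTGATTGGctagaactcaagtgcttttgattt
RT1-Ba: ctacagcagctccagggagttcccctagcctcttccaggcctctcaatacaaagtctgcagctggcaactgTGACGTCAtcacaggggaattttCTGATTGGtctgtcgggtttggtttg
RT1-DMa: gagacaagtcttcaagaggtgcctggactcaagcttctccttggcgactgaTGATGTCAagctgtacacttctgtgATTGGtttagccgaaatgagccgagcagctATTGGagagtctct
The Y box letters stood in 7 of the 9 class II RT1 promoters that were matched, and also in 5 of the 10 class I RT1 promoters, against 3.5% of all 33469 rat promoters in the table. In the class II RT1 promoters they lay on the strand of the gene, 46 to 120 bases before the start. In the class I RT1 promoters they lay on the other strand, from 106 bases before the start to just past it. The shorter CCAAT letters lie inside the Y box on the other strand and so overlap it. They stood in 9 of 9 class II RT1 promoters and in 9 of 10 class I RT1 promoters, against 37.5% of all promoters. The X1 letters were in 2 of the 9 class II RT1 promoters and in 0.807% of all promoters. The CRE letters were in 1 of these 9 and in 1.83% of all, and TGATGTCA was in 1 of these 9 and in 4.34% of all.

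The class I heavy chain genes RT1-A1, at chr20:4907069-4907168 on the plus strand, and RT1-A2, at chr20:4872691-4872790 on the plus strand, are shown from 140 to 41 and from 180 to 81 bases before the start for the pair of motifs they share, the kappaB letters GGGATTCCC and the interferon response letters TTTCACTTC. B2m, at chr3:129549160-129549279 on the plus strand, and Tapbp, at chr20:4967878-4967977 on the minus strand, are shown from 170 to 51 and from 100 to 1 bases before the start for the interferon response pair GAAANNGAA, where N is any base, and B2m also for CCAAT read as ATTGG.
RT1-A1: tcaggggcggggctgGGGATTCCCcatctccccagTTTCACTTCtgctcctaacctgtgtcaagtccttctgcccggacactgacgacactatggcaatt
RT1-A2: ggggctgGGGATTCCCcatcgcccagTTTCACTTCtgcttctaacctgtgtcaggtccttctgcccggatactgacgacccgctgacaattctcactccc
B2m: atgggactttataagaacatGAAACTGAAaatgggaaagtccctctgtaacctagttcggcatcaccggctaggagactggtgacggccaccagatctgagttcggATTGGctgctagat
Tapbp: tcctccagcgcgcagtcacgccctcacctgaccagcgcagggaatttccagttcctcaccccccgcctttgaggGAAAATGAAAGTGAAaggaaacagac
The kappaB letters stood in 2 of the 10 class I RT1 promoters matched, against 0.365% of all promoters, and TTTCACTTC in 3 of 10 against 0.469%. GAAANNGAA, which can share letters with TTTCACTTC on the other strand, stood in 5 of the 6 class I pathway promoters matched, in 2 of the 10 class I RT1 promoters and in 0 of the 9 class II RT1 promoters, against 9.71% of all promoters. In Tapbp the capitals hold 2 overlapping copies of it. By symbol, RefSeq places 31 of the 35 rows (29 of 33 symbols) on chromosome 20, where Tap2, Psmb8, Tap1 and Psmb9 follow each other between the class II genes RT1-DOb and RT1-DMb.

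Library totals ran from 13763106 to 18632301 expected counts. Replicates 1 and 2 of each group were read on one sequencing platform (NovaSeq X Plus) and replicate 3 on another (DNBSEQ-T7), so platform was balanced over the groups. Control replicate 1 stood apart from the other controls, with chi-square per degree of freedom of 318 against each, and it was the lowest control in 31 of the 35 genes. Schwann cell markers, which check the nerve label, were detected in every group, with summed levels of 8988 to 13226 CPM in VP4:2 stumps, 9718 to 25365 CPM in CC4:2 stumps, 1817 to 2413 CPM in CC4:4 stumps and 265 to 3329.9 CPM in Control stumps. Levels are given as CPM, counts relative to the library total as scaled by TMM, which are not divided by gene length, so levels are compared between samples and not between genes.

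CC4:2 stumps held less RNA of the antigen presentation genes than Control stumps. At an edgeR adjusted p under 0.05, 24 of the 35 genes fell and 0 rose, where 43.5% of the 15712 genes tested were called in either direction and 23.2% were called lower and 20.3% higher. The fall took in 10 of the 12 class II genes, 8 of the 16 class I RT1 genes and 6 of the 7 class I pathway genes. All 35 log2 fold changes were below 0, also under RLE scaling, upper quartile scaling and with immunoglobulin genes left out, and their median was -1.22, beside -0.045 over all genes tested. In 22 of the 35 genes every CC4:2 value was below every Control value, as was the case for 25.8% of all genes tested. With the NovaSeq X Plus samples alone 18 genes were called, 17 of them among the 24, and 34 of 35 folds were below 0. Over all genes 3220 were called there, beside 6835 with all 12 samples. The 7 calls lost there were Ciita, RT1-DOa, RT1-Db2, RT1-Ha, Tap1, Tapbp and RT1-CE15 (ENSRNOG00000065311), with adjusted p-values of 0.051 to 0.31, while the other platform holds 1 sample per group and gives no test. Without Control replicate 1 the count was 29 and without Control replicate 3 it was 18. Over all genes the counts in these fits were 7233 and 5244. In bulk tissue, fewer cells of a type and less RNA per cell cannot be told apart.

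Verteporfin-loaded VP4:2 stumps differed from CC4:2 stumps in 4 of the 35 genes, all higher, where 6.23% of all genes were called and 5.23% were called higher and 0.999% lower. The 4 were the class II peptide exchange genes RT1-DMa and RT1-DMb, the class I gene RT1-M2 and the immunoproteasome gene Psmb8. With replicate number as a block RT1-Ba was also called, at 0.88 (adjusted p = 0.048), which makes 5. The log2 fold change was above 0 in 30 of the 35 genes (29 under RLE or upper quartile scaling), with a median of 0.76 over the 12 class II genes and 0.38 over the 23 class I genes, beside -0.027 over all genes tested. In 13 genes every VP4:2 value lay above every CC4:2 value, against 17.5% of all genes. With the NovaSeq X Plus samples alone 2 genes were called, RT1-DMb and RT1-M2. Over all genes 202 were called there, beside 979 with all 12 samples.

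VP4:2 against Control gave 11 genes lower and 0 higher, where 18.9% of all genes were called and 9.57% were called lower and 9.3% higher. Of the 11, 10 were among the 23 class I genes (5 class I RT1 and 5 pathway genes) and 1, RT1-Db2, was among the 12 class II genes. The median log2 fold change was -0.92 over the class I genes and -0.45 over the class II genes, and the difference between the classes was not tested. This count, like that over all genes, leaned on single libraries. Of the 35 genes, it was 5 without Control replicate 2, 5 without Control replicate 3, 5 without VP4:2 replicate 1, 6 without VP4:2 replicate 2, 5 without VP4:2 replicate 3 and 16 without Control replicate 1. Over all genes, 2964 were called with all 12 samples, and 2265, 1166, 1220, 1228, 1605 and 4294 in these fits, in the same order. With the NovaSeq X Plus samples alone edgeR called 0 of the 35 genes (8 at an unadjusted p under 0.05) and 19 of all genes tested.

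CC4:4 against Control gave 0 of 35 genes at the same threshold, where 0.0% of all genes were called. At an unadjusted p under 0.05 there were 6 of the 35 genes and 830 of all 15712. The limma-voom alternative also called 0 of the 35, and DESeq2 called 1, a row of RT1-CE15, beside 11 of all genes. The median log2 fold change of the 35 genes was -0.22, and with the NovaSeq X Plus samples alone it was 0.11. CC4:2 against CC4:4 gave 20 of the 35 genes lower and 0 higher, where 39.2% of all genes were called and 20.7% were called lower and 18.5% higher. Those 20 were 8 of the 12 class II genes, 6 of the 16 class I RT1 genes and 6 of the 7 pathway genes.

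**Figure D1:**
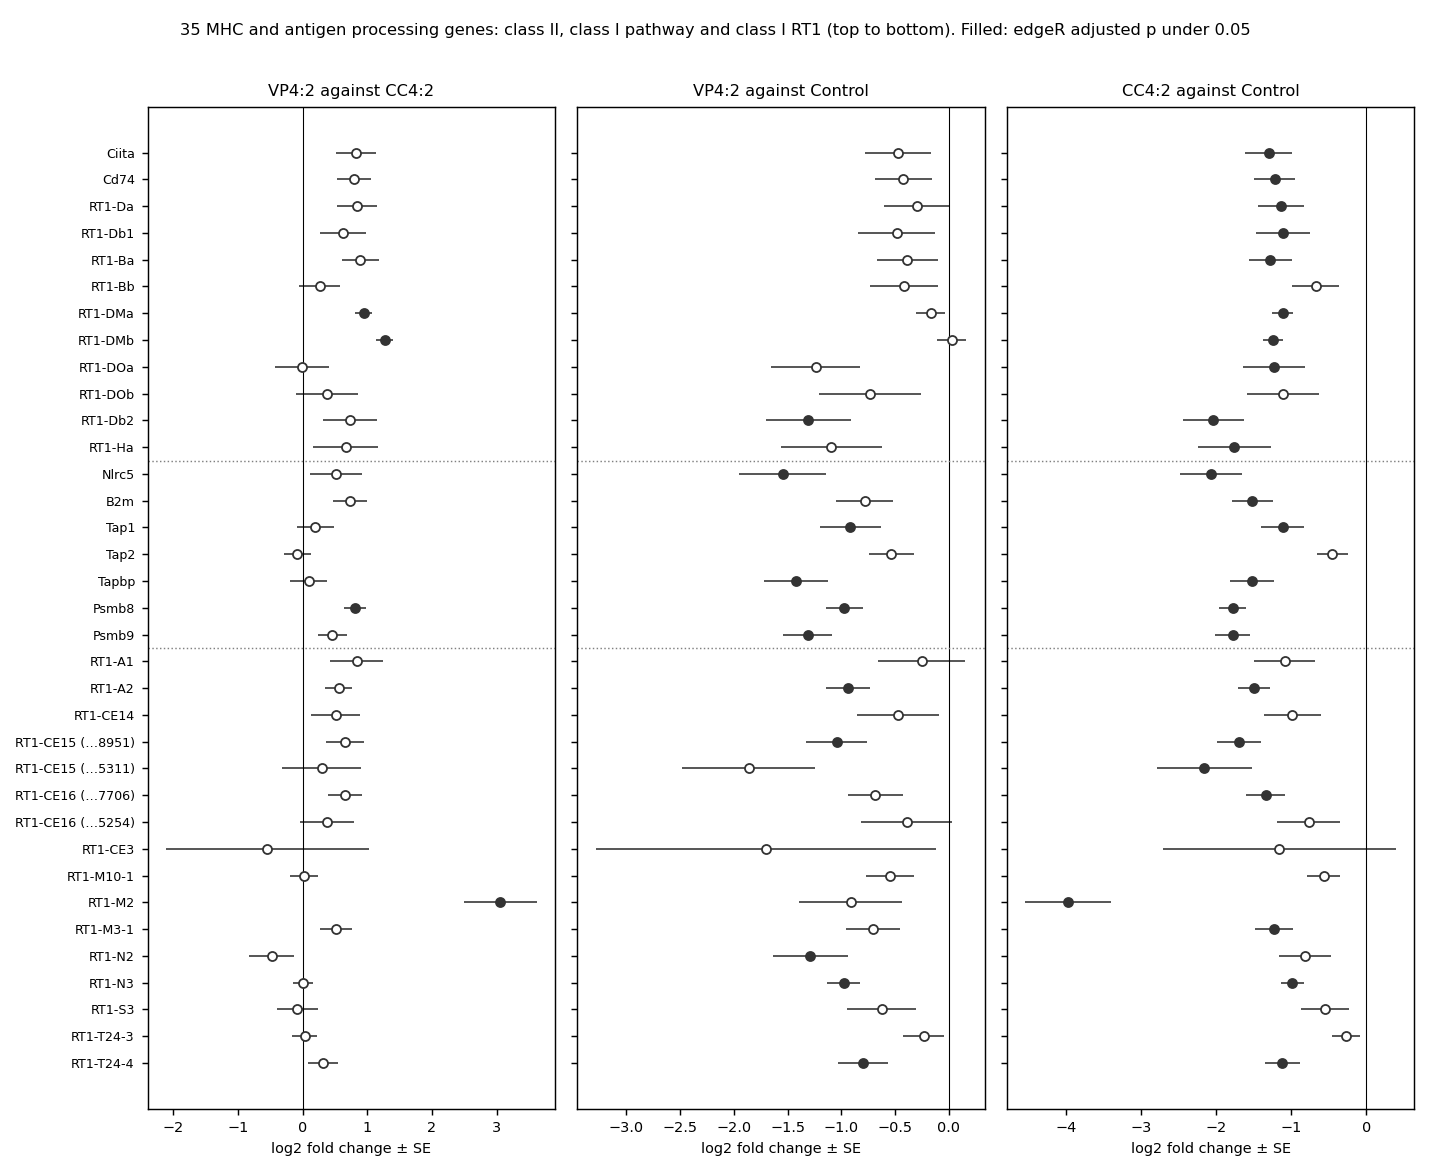
Log2 fold change with its standard error (horizontal axis) for each of the 35 genes in VP4:2 against CC4:2, VP4:2 against Control and CC4:2 against Control, with class II genes and partners at the top, class I pathway genes in the middle and class I RT1 genes at the bottom. Filled points passed an edgeR adjusted p of 0.05, which holds for 4 genes in VP4:2 against CC4:2, 11 in VP4:2 against Control and 24 in CC4:2 against Control.

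Among the class II genes, Ciita, Cd74 and 8 of the 10 class II RT1 genes fell in CC4:2 against Control, RT1-Bb and RT1-DOb not being called. Ciita, the transactivator without which class II genes are not transcribed, had 26.2, 39.2 and 46.6 CPM in VP4:2 stumps, 18.2, 23.9 and 21.3 CPM in CC4:2 stumps, 59.6, 46.4 and 32.2 CPM in CC4:4 stumps and 32.3, 54.9 and 68.8 CPM in Control stumps. The CC4:2 values were the lowest of the 12 stumps, all 3 of them. Ciita fell in CC4:2 against Control, with a log2 fold change of -1.30 ± 0.31 (SE, edgeR adjusted p = 0.007), and in CC4:2 against CC4:4, with -1.13 ± 0.31 (SE, edgeR adjusted p = 0.015). The first call was lost with the NovaSeq X Plus samples alone (-1.04, adjusted p = 0.071), and the second without CC4:2 replicate 1 (adjusted p = 0.054) or CC4:4 replicate 1 (adjusted p = 0.065). Its fold was 0.82 ± 0.31 (SE, edgeR adjusted p = 0.15) in VP4:2 against CC4:2, with no overlap between the groups.

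Cd74, the invariant chain that holds the peptide groove closed until the class II molecule reaches an endosome, had 1313, 1548 and 2066 CPM in VP4:2 stumps, 857, 795 and 1183 CPM in CC4:2 stumps, 1996, 1649 and 1967 CPM in CC4:4 stumps and 1514, 2355 and 2735 CPM in Control stumps. Every CC4:2 stump was again below the other 9. Cd74 fell in CC4:2 against Control (-1.22 ± 0.27 SE, edgeR adjusted p = 0.0046) and in CC4:2 against CC4:4 (-0.99 ± 0.27 SE, edgeR adjusted p = 0.015), the second a call lost without CC4:2 replicate 2 (adjusted p = 0.052). The fold was 0.80 ± 0.27 (SE, edgeR adjusted p = 0.11) in VP4:2 against CC4:2 and -0.42 ± 0.27 (SE, edgeR adjusted p = 0.29) in VP4:2 against Control.

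RT1-Da and RT1-Db1 encode the chains of RT1-D, the rat counterpart of human HLA-DR. RT1-Da, whose promoter carries the X1 and Y box letters printed above, had 571, 741 and 965 CPM in VP4:2 stumps, 369, 316 and 588 CPM in CC4:2 stumps, 909, 676 and 921 CPM in CC4:4 stumps and 655, 929 and 1211 CPM in Control stumps. CC4:2 replicate 3 reached the range of the VP4:2 stumps but not that of the controls. RT1-Da fell in CC4:2 against Control (-1.14 ± 0.31 SE, edgeR adjusted p = 0.013), a call lost without Control replicate 3 (adjusted p = 0.059), and its fold in VP4:2 against CC4:2 was 0.84 ± 0.31 (SE, edgeR adjusted p = 0.14). RT1-Db1 had 238, 350.2 and 409 CPM in VP4:2 stumps, 161, 144 and 343 CPM in CC4:2 stumps, 381, 291 and 378 CPM in CC4:4 stumps and 323, 443 and 629 CPM in Control stumps. Here CC4:2 replicate 3 lay above the lowest control. RT1-Db1 fell in CC4:2 against Control (-1.10 ± 0.36 SE, edgeR adjusted p = 0.029), but the adjusted p was 0.055 without Control replicate 2, 0.12 without Control replicate 3, 0.096 without CC4:2 replicate 1 and 0.099 without CC4:2 replicate 2.

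RT1-Ba and RT1-Bb encode the chains of RT1-B, the counterpart of human HLA-DQ. RT1-Ba, with the CRE and Y box letters in its promoter, had 348, 450.3 and 608 CPM in VP4:2 stumps, 238, 199 and 321 CPM in CC4:2 stumps, 544, 452 and 557 CPM in CC4:4 stumps and 419, 599 and 821 CPM in Control stumps. The 3 CC4:2 stumps were lower than all 9 others. RT1-Ba fell in CC4:2 against Control (-1.28 ± 0.29 SE, edgeR adjusted p = 0.0052), and its fold was 0.89 ± 0.29 (SE, edgeR adjusted p = 0.099) in VP4:2 against CC4:2 and -0.39 ± 0.28 (SE, edgeR adjusted p = 0.36) in VP4:2 against Control. Its partner chain RT1-Bb had 103, 161 and 167 CPM in VP4:2 stumps, 79.8, 98.1 and 181 CPM in CC4:2 stumps, 162, 125 and 145 CPM in CC4:4 stumps and 142, 183 and 249 CPM in Control stumps. CC4:2 replicate 3 stood at the level of the middle control, and the groups overlapped. The fold of RT1-Bb in CC4:2 against Control was -0.68 ± 0.32 (SE, edgeR adjusted p = 0.11), which became -1.10 (adjusted p = 0.013) without CC4:2 replicate 3.

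RT1-DMa and RT1-DMb encode DM, the endosomal molecule that exchanges the invariant chain remnant for antigenic peptide. RT1-DMa had 74.5, 70.3 and 94.4 CPM in VP4:2 stumps, 43.5, 37.5 and 43.4 CPM in CC4:2 stumps, 80.9, 85.8 and 93.9 CPM in CC4:4 stumps and 90.8, 80.0 and 98.2 CPM in Control stumps. The CC4:2 stumps lay far under the other 9, which overlapped among themselves. RT1-DMa fell in CC4:2 against Control (-1.11 ± 0.14 SE, edgeR adjusted p = 0.00022) and in CC4:2 against CC4:4 (-1.07 ± 0.14 SE, edgeR adjusted p = 0.00038), and rose in VP4:2 against CC4:2 (0.94 ± 0.14 SE, edgeR adjusted p = 0.0024). RT1-DMb had 128, 121 and 162 CPM in VP4:2 stumps, 53.3, 53.2 and 64.2 CPM in CC4:2 stumps, 118, 123 and 131 CPM in CC4:4 stumps and 129, 131 and 144 CPM in Control stumps. The same 3 stumps were low, with no overlap with any other group. RT1-DMb fell in CC4:2 against Control (-1.24 ± 0.14 SE, edgeR adjusted p = 0.00012) and rose in VP4:2 against CC4:2 (1.27 ± 0.14 SE, edgeR adjusted p = 0.00049). Against Control, the VP4:2 folds were -0.17 ± 0.14 for RT1-DMa and 0.03 ± 0.13 for RT1-DMb, with edgeR adjusted p-values of 0.41 and 0.91.

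RT1-DOa and RT1-DOb encode DO, a modulator of DM that is known mainly from B cells. RT1-DOa had 2.85, 5.16 and 5.36 CPM in VP4:2 stumps, 4.24, 5.13 and 4.07 CPM in CC4:2 stumps, 7.63, 11.1 and 6.02 CPM in CC4:4 stumps and 4.78, 11.1 and 15.8 CPM in Control stumps. Control replicate 1 was as low as the CC4:2 stumps. RT1-DOa fell in CC4:2 against Control (-1.23 ± 0.41 SE, edgeR adjusted p = 0.033), but leaving out any 1 of Control replicates 2 or 3 or the CC4:2 stumps moved its adjusted p above 0.05, up to 0.16. RT1-DOb had 3.51, 6.71 and 6.92 CPM in VP4:2 stumps, 4.02, 5.08 and 4.12 CPM in CC4:2 stumps, 8.98, 13.7 and 4.86 CPM in CC4:4 stumps and 4.27, 9.06 and 15.3 CPM in Control stumps. The CC4:2 range lay within or below that of the controls, and the fold of RT1-DOb was -1.11 ± 0.48 (SE, edgeR adjusted p = 0.082), or -1.47 (adjusted p = 0.020) without Control replicate 1. Between VP4:2 and CC4:2 the folds were -0.01 ± 0.41 for RT1-DOa and 0.37 ± 0.48 for RT1-DOb, neither of them called.

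RT1-Db2 and RT1-Ha were the class II genes of fewest counts. RT1-Db2, a second beta chain gene of RT1-D, had 0.822, 0.859 and 0.757 CPM in VP4:2 stumps, 0.424, 0.677 and 0.365 CPM in CC4:2 stumps, 1.41, 2.10 and 1.71 CPM in CC4:4 stumps and 1.24, 1.87 and 2.99 CPM in Control stumps. All 6 stumps with a 4:2 conduit were below all 6 others. RT1-Db2 fell in CC4:2 against Control (-2.04 ± 0.41 SE, edgeR adjusted p = 0.0029) and in VP4:2 against Control (-1.31 ± 0.40 SE, edgeR adjusted p = 0.042), the first call being lost with the NovaSeq X Plus samples alone (-1.47, adjusted p = 0.10) and the second without any 1 of Control replicates 2 and 3 and the VP4:2 stumps, with adjusted p-values of 0.078 to 0.19. RT1-Ha, related to the human HLA-DP alpha chain, had 0.658, 0.537 and 0.703 CPM in VP4:2 stumps, 0.371, 0.508 and 0.313 CPM in CC4:2 stumps, 1.82, 2.85 and 0.752 CPM in CC4:4 stumps and 1.07, 1.33 and 1.70 CPM in Control stumps. Neither 4:2 group overlapped the controls. RT1-Ha fell in CC4:2 against Control (-1.76 ± 0.49 SE, edgeR adjusted p = 0.015), with adjusted p-values of 0.057 without Control replicate 3, 0.051 without CC4:2 replicate 3 and 0.11 with the NovaSeq X Plus samples alone. Its fold in VP4:2 against Control was -1.09 ± 0.47 (SE, edgeR adjusted p = 0.13).

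**Figure D2:**
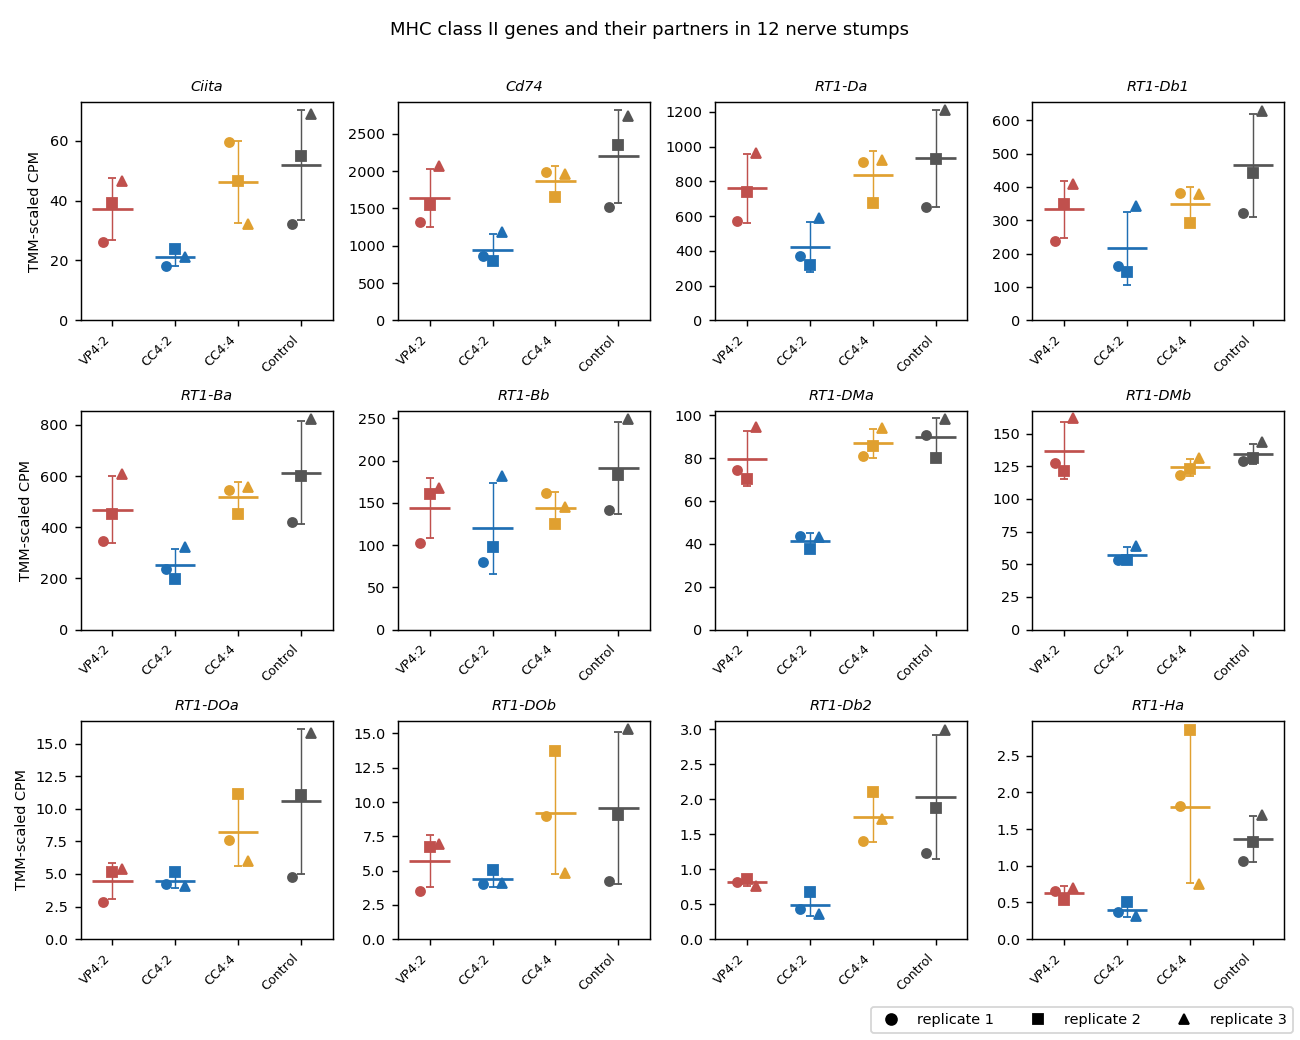
TMM-scaled CPM (vertical axes, from 0, a scale per panel) of the 12 class II genes and partners in each stump, by group, with a horizontal line at the group mean and bars of 1 SD over 3 stumps. The CC4:2 stumps of RT1-DMa (37.5 to 43.5 CPM) and RT1-DMb (53.2 to 64.2 CPM) lie below every stump of the other groups.

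The class I pathway genes include the regulator, the light chain, the peptide transporter with its tapasin bridge, and the immunoproteasome. Nlrc5, the class I counterpart of Ciita, had 23.0, 22.9 and 22.2 CPM in VP4:2 stumps, 9.05, 16.3 and 22.1 CPM in CC4:2 stumps, 63.8, 49.3 and 36.3 CPM in CC4:4 stumps and 30.4, 76.8 and 92.3 CPM in Control stumps. All 6 stumps with a 4:2 conduit were below all 6 others. Nlrc5 fell in CC4:2 against Control (-2.07 ± 0.41 SE, edgeR adjusted p = 0.0026) and in VP4:2 against Control (-1.55 ± 0.40 SE, edgeR adjusted p = 0.025), where the call was lost without any 1 of Control replicates 2 and 3 and the VP4:2 stumps, with adjusted p-values of 0.068 to 0.10. Its fold in VP4:2 against CC4:2 was 0.52 ± 0.40 (SE, edgeR adjusted p = 0.47).

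B2m, the light chain of every class I molecule, had 2671, 2000.0 and 2651 CPM in VP4:2 stumps, 1386, 1078 and 1938 CPM in CC4:2 stumps, 4198, 3988 and 3603 CPM in CC4:4 stumps and 3034, 4524 and 5031 CPM in Control stumps. The CC4:2 stumps were the lowest 3 of the 12, and the VP4:2 stumps lay between them and the rest. B2m fell in CC4:2 against Control (-1.52 ± 0.27 SE, edgeR adjusted p = 0.0014) and in CC4:2 against CC4:4 (-1.42 ± 0.27 SE, edgeR adjusted p = 0.0025). The fold of B2m in VP4:2 against Control was -0.78 ± 0.27 (SE, edgeR adjusted p = 0.063), which was -0.97 (adjusted p = 0.018) without Control replicate 1, and between VP4:2 and CC4:2 it was 0.73 ± 0.27 (SE, edgeR adjusted p = 0.14).

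Psmb8 and Psmb9 encode catalytic subunits that replace their constitutive counterparts in the immunoproteasome. Psmb8 had 66.3, 55.5 and 69.2 CPM in VP4:2 stumps, 34.4, 37.2 and 37.4 CPM in CC4:2 stumps, 126, 142 and 114 CPM in CC4:4 stumps and 98.0, 116 and 161 CPM in Control stumps. The order was CC4:2, then VP4:2, then the other groups, with no overlap between these 3 levels. Psmb8 fell in CC4:2 against Control (-1.78 ± 0.18 SE, edgeR adjusted p = 7.4e-05) and in VP4:2 against Control (-0.97 ± 0.17 SE, edgeR adjusted p = 0.0067). Psmb8 also rose in VP4:2 against CC4:2 (0.81 ± 0.17 SE, edgeR adjusted p = 0.021), and this adjusted p was 0.074, 0.066 and 0.055 without CC4:2 replicate 1, 2 and 3, and 0.077 and 0.093 without VP4:2 replicate 1 and 3. Psmb9 had 40.6, 33.4 and 38.9 CPM in VP4:2 stumps, 22.1, 25.3 and 34.6 CPM in CC4:2 stumps, 94.4, 86.9 and 73.9 CPM in CC4:4 stumps and 64.4, 95.5 and 121 CPM in Control stumps. Here CC4:2 replicate 3 reached into the VP4:2 range. Psmb9 fell in CC4:2 against Control (-1.78 ± 0.23 SE, edgeR adjusted p = 0.0003) and in VP4:2 against Control (-1.31 ± 0.23 SE, edgeR adjusted p = 0.0065), with 0.46 ± 0.23 (SE, edgeR adjusted p = 0.26) in VP4:2 against CC4:2.

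Tap1 and Tap2 encode both parts of the peptide transporter, and Tapbp encodes tapasin, which ties it to the heavy chain. Tap1 had 53.2, 54.2 and 47.7 CPM in VP4:2 stumps, 31.1, 49.8 and 54.4 CPM in CC4:2 stumps, 114, 91.1 and 67.7 CPM in CC4:4 stumps and 63.8, 96.2 and 133 CPM in Control stumps. CC4:2 and VP4:2 stumps overlapped, and both groups lay under the controls. Tap1 fell in CC4:2 against Control (-1.11 ± 0.29 SE, edgeR adjusted p = 0.01), a call lost without Control replicate 3 (adjusted p = 0.056). Tap1 also fell in VP4:2 against Control (-0.92 ± 0.29 SE, edgeR adjusted p = 0.047), with adjusted p-values of 0.10 to 0.21 without Control replicate 2 or 3 or any VP4:2 stump and 0.081 with replicate number as a block. Expected counts of Tap1 and Psmb9 were often not whole, but their sum was within 0.011 of a whole number in 12 of 12 samples, so reads were divided between these 2 genes and their levels are not independent.

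Tap2 had 61.3, 64.2 and 59.6 CPM in VP4:2 stumps, 52.0, 72.1 and 71.7 CPM in CC4:2 stumps, 96.8, 78.8 and 72.2 CPM in CC4:4 stumps and 62.2, 97.4 and 109 CPM in Control stumps. CC4:2 and VP4:2 stumps overlapped the controls and each other, while both lay below CC4:4, CC4:2 by a very small margin. Tap2 was the class I pathway gene not called in CC4:2 against Control (-0.45 ± 0.21 SE, edgeR adjusted p = 0.096), although without Control replicate 1 its fold was -0.65 (adjusted p = 0.012). Tapbp, with the GAAANNGAA letters next to its start, had 72.6, 82.8 and 64.1 CPM in VP4:2 stumps, 50.6, 79.8 and 75.0 CPM in CC4:2 stumps, 183, 190.0 and 144 CPM in CC4:4 stumps and 108, 219.7 and 261 CPM in Control stumps. Both 4:2 groups lay below both others, and they overlapped each other. Tapbp fell in CC4:2 against Control (-1.52 ± 0.30 SE, edgeR adjusted p = 0.0024) and in VP4:2 against Control (-1.42 ± 0.30 SE, edgeR adjusted p = 0.011), with 0.10 ± 0.29 (SE, edgeR adjusted p = 0.88) in VP4:2 against CC4:2. Leaving out any 1 of the 6 libraries kept the VP4:2 against Control call of Tapbp.

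**Figure D3:**
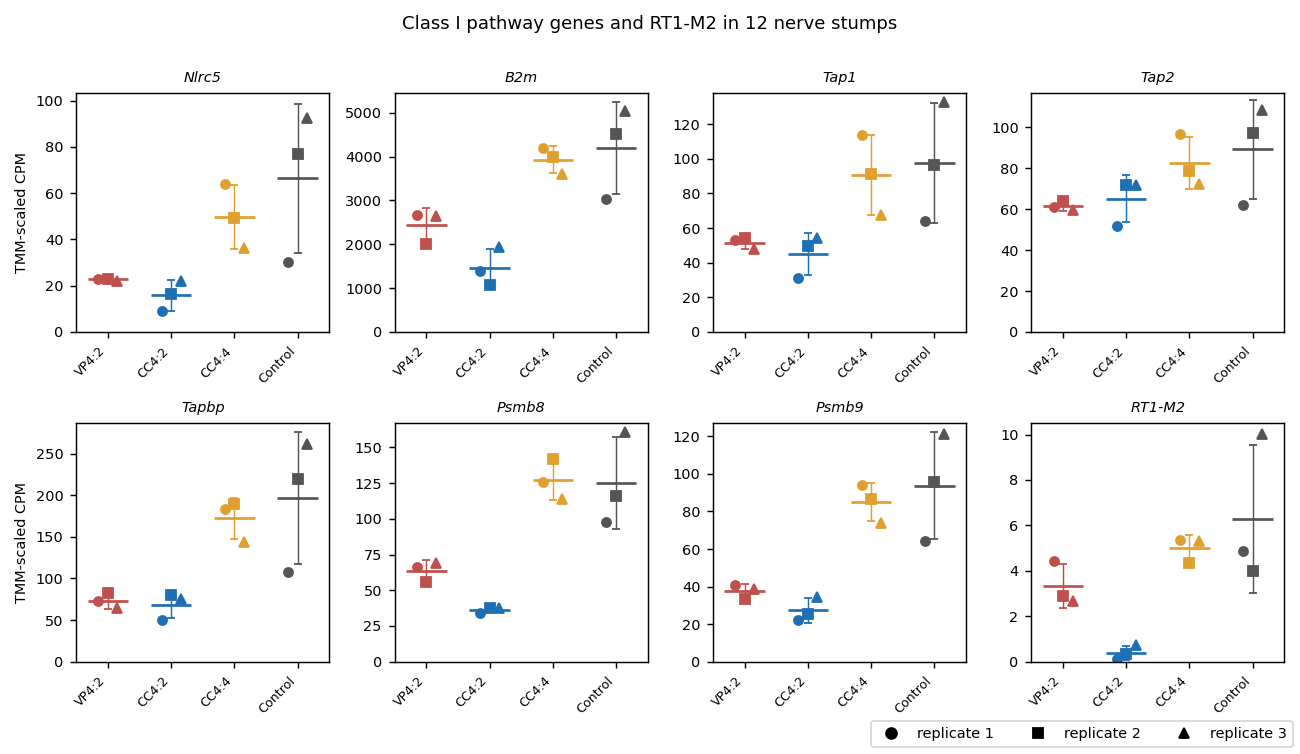
TMM-scaled CPM (vertical axes, from 0, a scale per panel) of the 7 class I pathway genes and RT1-M2 in each stump, by group, with a line at the group mean and bars of 1 SD over 3 stumps. The Psmb8 panel shows 3 levels without overlap, 34.4 to 37.4 CPM in CC4:2 stumps, 55.5 to 69.2 CPM in VP4:2 stumps and 98.0 to 161 CPM in the CC4:4 and Control stumps.

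The class I RT1 genes encode heavy chains, classical and nonclassical, apart from RT1-M10-1 and RT1-CE14. By symbol, RefSeq lists RT1-M10-1 as a long noncoding RNA and RT1-CE14 as a miscellaneous RNA. Many class I RT1 genes are near-identical copies. Of the 16, 15 had values that were not whole in at least 1 sample, which marks reads shared among genes, and so did 4 of the 10 class II RT1 genes and 4 of the 7 pathway genes. Levels of single class I copies are therefore uncertain. RT1-N2 and RT1-N3 summed to a whole number in 9 of 12 samples.

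Among the 6 class I RT1 genes with the most counts, RT1-CE16 (ENSRNOG00000065254) had 846, 543 and 796 CPM in VP4:2 stumps, 224, 763 and 696 CPM in CC4:2 stumps, 1195, 927 and 1041 CPM in CC4:4 stumps and 622, 871 and 1376 CPM in Control stumps. CC4:2 replicate 1 was low, and the other 2 CC4:2 stumps were among the VP4:2 and Control values. Its fold was -0.77 ± 0.42 (SE, edgeR adjusted p = 0.16) in CC4:2 against Control and 0.38 ± 0.42 (SE, edgeR adjusted p = 0.64) in VP4:2 against CC4:2. RT1-A1, a classical heavy chain gene with the kappaB letters printed above, had 361, 212 and 171 CPM in VP4:2 stumps, 83.2, 112 and 221 CPM in CC4:2 stumps, 307, 217 and 211 CPM in CC4:4 stumps and 181, 348 and 357 CPM in Control stumps. The groups overlapped through CC4:2 replicate 3 and Control replicate 1. The fold of RT1-A1 in CC4:2 against Control was -1.09 ± 0.41 (SE, edgeR adjusted p = 0.051), and it was -1.34 (adjusted p = 0.024) without Control replicate 1 and -1.59 (adjusted p = 0.012) without CC4:2 replicate 3.

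RT1-S3 had 191, 145 and 153 CPM in VP4:2 stumps, 112, 167 and 235 CPM in CC4:2 stumps, 271, 230.4 and 219 CPM in CC4:4 stumps and 153, 233 and 366 CPM in Control stumps. CC4:2 and VP4:2 stumps overlapped the controls and each other, and VP4:2 stumps lay below CC4:4 stumps. The folds were -0.55 ± 0.32 (SE, edgeR adjusted p = 0.19) in CC4:2 against Control and -0.08 ± 0.32 (SE, edgeR adjusted p = 0.91) in VP4:2 against CC4:2. RT1-T24-4 had 138, 135 and 146 CPM in VP4:2 stumps, 80.3, 116 and 139 CPM in CC4:2 stumps, 229, 227 and 231 CPM in CC4:4 stumps and 177, 228 and 324 CPM in Control stumps. The 3 CC4:4 stumps were nearly equal and above all 6 stumps with a 4:2 conduit. RT1-T24-4 fell in CC4:2 against Control (-1.12 ± 0.23 SE, edgeR adjusted p = 0.0033) and in VP4:2 against Control (-0.80 ± 0.23 SE, edgeR adjusted p = 0.036), the second with adjusted p-values of 0.071 to 0.17 without Control replicate 2 or 3 or any VP4:2 stump.

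RT1-T24-3, the neighbouring gene in the RefSeq order, had 56.9, 69.4 and 47.6 CPM in VP4:2 stumps, 56.4, 43.8 and 69.6 CPM in CC4:2 stumps, 56.9, 56.7 and 54.6 CPM in CC4:4 stumps and 67.4, 57.3 and 79.9 CPM in Control stumps. CC4:2 and VP4:2 stumps overlapped the controls and each other, the CC4:4 stumps lay below the controls by a small margin, and its folds were -0.27 ± 0.19 (SE, edgeR adjusted p = 0.28) in CC4:2 against Control and 0.03 ± 0.19 (SE, edgeR adjusted p = 0.94) in VP4:2 against CC4:2. RT1-M10-1, listed by RefSeq as a long noncoding RNA, had 34.9, 38.9 and 40.1 CPM in VP4:2 stumps, 41.2, 27.7 and 43.1 CPM in CC4:2 stumps, 42.4, 41.7 and 40.0 CPM in CC4:4 stumps and 36.9, 65.3 and 64.4 CPM in Control stumps. Control replicates 2 and 3 were the highest. The fold of RT1-M10-1 in CC4:2 against Control was -0.57 ± 0.22 (SE, edgeR adjusted p = 0.056), and it was -0.79 (adjusted p = 0.0037) without Control replicate 1.

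The 4 class I RT1 genes with the smallest p in CC4:2 against Control were RT1-A2, RT1-M2, RT1-N3 and a row of RT1-CE15 (ENSRNOG00000048951). RT1-A2, the second gene printed with the kappaB letters, had 23.8, 42.4 and 36.2 CPM in VP4:2 stumps, 18.6, 26.1 and 24.9 CPM in CC4:2 stumps, 39.8, 36.0 and 39.7 CPM in CC4:4 stumps and 58.7, 75.0 and 62.4 CPM in Control stumps. Control stumps were above all 9 conduit stumps. RT1-A2 fell in CC4:2 against Control (-1.50 ± 0.21 SE, edgeR adjusted p = 0.00039) and in VP4:2 against Control (-0.94 ± 0.21 SE, edgeR adjusted p = 0.013), and its fold in CC4:4 against Control was -0.76 ± 0.21 (SE, edgeR adjusted p = 0.93). RT1-N3 fell in CC4:2 against Control (-0.99 ± 0.15 SE, edgeR adjusted p = 0.00061) and in VP4:2 against Control (-0.98 ± 0.15 SE, edgeR adjusted p = 0.0045), and the CC4:2 and VP4:2 stumps overlapped, with 0.01 ± 0.15 between them. The RT1-CE15 row had 1.30 to 2.40 CPM in CC4:2 stumps and 5.73 to 7.76 CPM in Control stumps, and fell (-1.70 ± 0.29 SE, edgeR adjusted p = 0.0012).

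RT1-M2 had 4.44, 2.90 and 2.65 CPM in VP4:2 stumps, 0.106, 0.338 and 0.731 CPM in CC4:2 stumps, 5.34, 4.34 and 5.33 CPM in CC4:4 stumps and 4.89, 3.98 and 10.02 CPM in Control stumps. The CC4:2 stumps were far below the others and held 2, 6 and 14 counts. RT1-M2 fell in CC4:2 against Control (-3.97 ± 0.57 SE, edgeR adjusted p = 0.00044) and rose in VP4:2 against CC4:2 (3.06 ± 0.56 SE, edgeR adjusted p = 0.0087), and both calls were kept with each library left out in turn. Of the remaining called genes, RT1-M3-1, whose mouse counterpart shows N-formylated peptides, fell in CC4:2 against Control (-1.23 ± 0.25 SE, edgeR adjusted p = 0.0033), as did the RT1-CE16 row ENSRNOG00000047706 (-1.34 ± 0.26 SE, edgeR adjusted p = 0.0025). The second RT1-CE15 row (ENSRNOG00000065311) had 5.79 CPM in Control replicate 1 and 44.4 and 33.8 CPM in the other controls. Its fall in CC4:2 against Control (-2.16 ± 0.63 SE, edgeR adjusted p = 0.018) was lost without Control replicate 2 (adjusted p = 0.068), Control replicate 3 (adjusted p = 0.052) or CC4:2 replicate 2 (adjusted p = 0.062). In VP4:2 against Control, RT1-N2 and the RT1-CE15 row ENSRNOG00000048951 were also called lower, with adjusted p-values of 0.029 and 0.029. Both of these calls were lost on leaving out Control replicate 2 or 3 or VP4:2 replicate 1 or 3, and the RT1-CE15 one also without Control replicate 1 or VP4:2 replicate 2, with adjusted p-values of 0.051 to 0.10 over these fits.

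RT1-CE3 varied widely between stumps of 1 group. It had 4.11, 0.107 and 6.11 CPM in VP4:2 stumps, 0.053, 7.16 and 7.83 CPM in CC4:2 stumps, 18.2, 25.9 and 15.9 CPM in CC4:4 stumps and 0.281, 0.703 and 32.9 CPM in Control stumps. VP4:2 replicate 2, CC4:2 replicate 1 and Control replicates 1 and 2 were near 0 beside other stumps of the same group with several CPM or more, while all 3 CC4:4 stumps had 15.9 CPM or more.

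**Figure D4:**
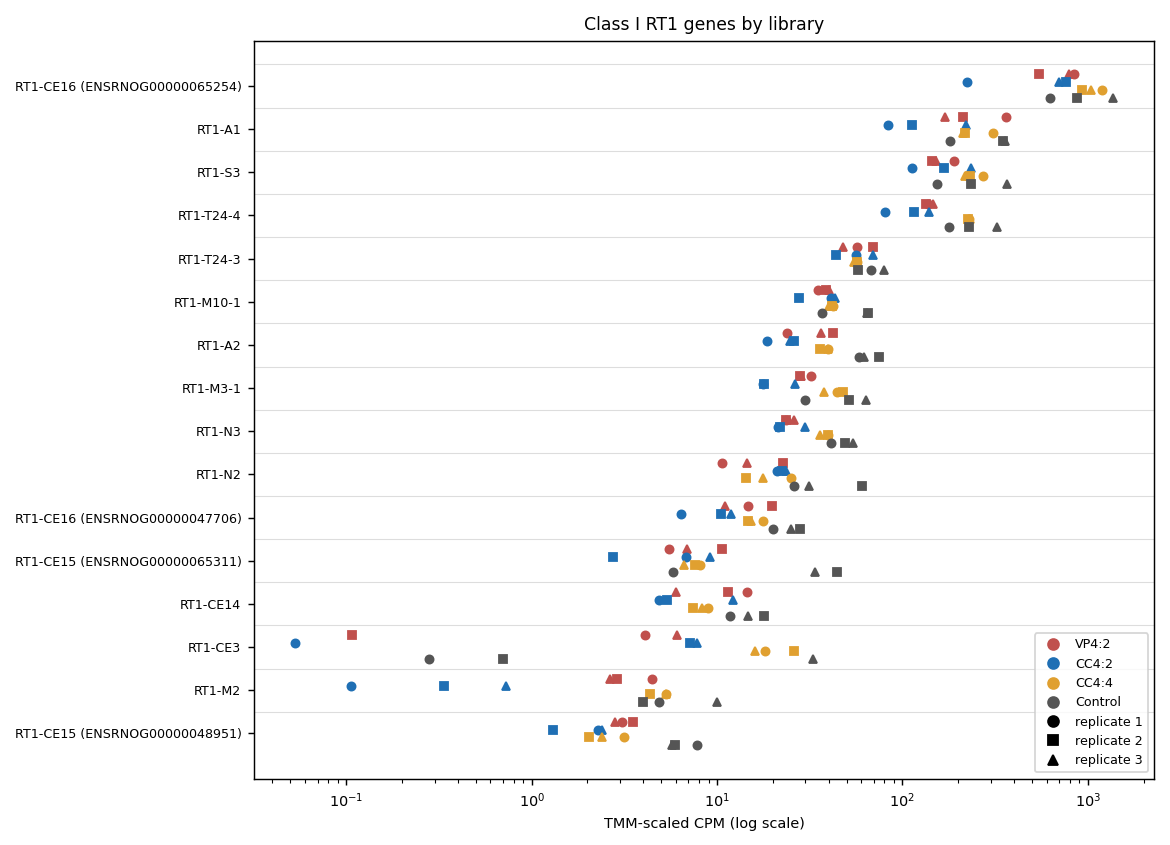
TMM-scaled CPM on a log scale (horizontal axis) of the 16 class I RT1 genes in the 12 stumps, ordered by mean level, with a colour per group and a symbol per replicate. RT1-M2 shows the CC4:2 stumps apart from the rest (0.106 to 0.731 CPM), and RT1-CE3 spreads from 0.0529 to 32.9 CPM, with wide ranges inside 3 of the groups.

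The copies of each class were also summed, and reads shared with genes outside a sum were not resolved. The summed class II RT1 level in CPM was 1471, 1908 and 2418 in VP4:2 stumps, 954, 859.6 and 1550.2 in CC4:2 stumps, 2215, 1783 and 2240.1 in CC4:4 stumps and 1769.8, 2389 and 3189 in Control stumps. CC4:2 stumps lay below every control, with group means of 1121 ± 374 CPM in CC4:2 stumps and 2449 ± 711 CPM in Control stumps (SD, n = 3 each), a log2 ratio of -1.13. The summed class I RT1 level was 1764, 1309 and 1493 in VP4:2 stumps, 697, 1346 and 1552 in CC4:2 stumps, 2311, 1899.9 and 1981 in CC4:4 stumps and 1444, 2139.8 and 2902 in Control stumps. CC4:2 and Control stumps overlapped here, and the log2 ratio of their means was -0.85. The log2 ratio of the means in VP4:2 against CC4:2 was 0.79 for the class II sum and 0.35 for the class I sum, and these sums were not tested.

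Genes around the MHC molecules were counted in lists chosen with earlier results of these data known. Among genes of endosomal class II processing, 7 of 9 fell in CC4:2 against Control (median log2 fold change -1.69, beside -0.045 over all genes), 6 of 9 rose in VP4:2 against CC4:2 (median 1.05, beside -0.027) and 0 of 9 passed in VP4:2 against Control. Over all genes tested 23.2% were called lower in CC4:2 against Control, 5.23% higher in VP4:2 against CC4:2 and 9.57% lower in VP4:2 against Control. Ifi30, a thiol reductase that unfolds antigen in endosomes, fell in CC4:2 against Control (log2 fold change -2.08 ± 0.19, SE) and rose in VP4:2 against CC4:2 (1.68 ± 0.18). Ctss, the protease that trims the invariant chain, fell (-1.89 ± 0.23) and rose (1.42 ± 0.23) in the same comparisons. Marchf1, a ubiquitin ligase that removes class II from the surface, fell (-2.07 ± 0.22) and rose (1.76 ± 0.22) likewise.

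For costimulation, 6 of 6 genes fell in CC4:2 against Control (median -1.96) and 3 of 6 rose in VP4:2 against CC4:2 (median 1.12), beside 23.2% called lower and 5.23% called higher over all genes. Cd86, which supplies the second signal to T cells, changed by -1.77 ± 0.23 in CC4:2 against Control and by 1.74 ± 0.23 in VP4:2 against CC4:2, and Cd40 by -2.15 ± 0.23 and 1.71 ± 0.23. In the interferon gamma list, 12 of the 13 genes tested fell in CC4:2 against Control (median -1.25), 8 of 13 fell in VP4:2 against Control (median -1.07) and 2 of 13 rose in VP4:2 against CC4:2 (median 0.34), where 23.2% and 9.57% of all genes were called lower and 5.23% higher. Those 2 were the receptor chains, Ifngr1 at 0.61 ± 0.13 and Ifngr2 at 0.98 ± 0.18. Jak2, the kinase of that receptor, fell in CC4:2 against Control (-0.99 ± 0.18) and in VP4:2 against Control (-0.65 ± 0.18).

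Among transcription factors of the MHC promoters, 3 of 10 fell in CC4:2 against Control (median -0.27), a share near the 23.2% of all genes called lower. Irf8 (-2.12 ± 0.28), Irf1 (-1.80 ± 0.29) and Irf2 (-0.52 ± 0.17) were those 3, and the other 7, which include the RFX and NF-Y subunits and Creb1 that bind the X and Y boxes, did not pass. Against Control, 3 of 10 fell in VP4:2, Irf1 (-1.32 ± 0.28), Irf8 (-1.15 ± 0.28) and Rfx5 (-0.61 ± 0.18). Over all genes tested 9.57% were called lower in VP4:2 against Control. For class I loading cofactors the count was 5 of 8 lower in CC4:2 against Control (median -0.52) and 2 of 8 lower in VP4:2 against Control, with the translocon genes Sec61b and Sec61a1 at the smallest adjusted p in both. In the list of inducible proteasome and activator genes, Psmb10 was not found by symbol, and Psme1, Psme2 and Pomp were tested. Of these, 3 of 3 fell in CC4:2 against Control (median -0.78), among them the activator gene Psme2 at -1.33 ± 0.17. In CC4:4 against Control 0 genes of each of these 6 lists were called, where 0.0% of all genes were called.

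Markers of immune cells were counted beside these genes. Summed macrophage markers (10 genes) were 2006 to 2337 CPM in VP4:2 stumps, 974 to 1456 CPM in CC4:2 stumps, 1459.9 to 2546 CPM in CC4:4 stumps and 2303 to 2908 CPM in Control stumps. In CC4:2 against Control 6 of 10 fell (median -0.97), and in VP4:2 against CC4:2 5 of 10 rose (median 0.88), where 23.2% of all genes were called lower and 5.23% higher. In VP4:2 against Control 1 of 10 fell (median -0.086), where 9.57% of all genes were called lower. Cd68, a lysosomal glycoprotein of macrophages, changed by -2.67 ± 0.19 in CC4:2 against Control and by 2.35 ± 0.19 in VP4:2 against CC4:2. Both folds were well beyond the list medians. Summed B cell markers (8 genes) were 30.5 to 67.6 CPM in VP4:2 stumps, 11.3 to 23.6 CPM in CC4:2 stumps, 219.6 to 684 CPM in CC4:4 stumps and 107 to 494 CPM in Control stumps, with a median log2 fold change of -4.32 in CC4:2 against Control. Summed T and NK cell markers (9 genes) were 81.6 to 103 CPM in VP4:2 stumps, 16.3 to 54.7 CPM in CC4:2 stumps, 235 to 355 CPM in CC4:4 stumps and 275 to 389 CPM in Control stumps, with a median of -3.73.

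Of the lymphocyte markers, 8 of 8 B cell genes and 9 of 9 T and NK cell genes fell in CC4:2 against Control, and 6 of 8 and 9 of 9 fell in VP4:2 against Control. In VP4:2 against CC4:2, 0 of 8 B cell genes and 4 of 9 T and NK cell genes rose, where 5.23% of all genes were called higher. The median log2 fold changes there were 1.94 for the B cell genes and 1.66 for the T and NK cell genes, beside -0.027 over all genes. Dendritic cell markers summed to 357 to 436 CPM in VP4:2 stumps, 222 to 318 CPM in CC4:2 stumps, 405 to 486 CPM in CC4:4 stumps and 369 to 565 CPM in Control stumps, with 6 of 9 tested genes lower and 1 higher in CC4:2 against Control (median -0.91). Schwann cell markers went the other way, with 8 of 8 higher in CC4:2 against Control and 5 of 8 in VP4:2 against Control, and endothelial markers summed to 936.5 to 1122 CPM in VP4:2 stumps, 1064 to 1747 CPM in CC4:2 stumps, 986 to 1482 CPM in CC4:4 stumps and 650.0 to 1329 CPM in Control stumps, with 2 of 8 genes higher in CC4:2 against Control. Over all genes 20.3% were called higher and 23.2% lower in CC4:2 against Control, and 9.3% higher and 9.57% lower in VP4:2 against Control. No marker was at 0 in all 3 stumps of a group in these 6 lists. The part of these markers in the MHC results was not tested.

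**Figure D5:**
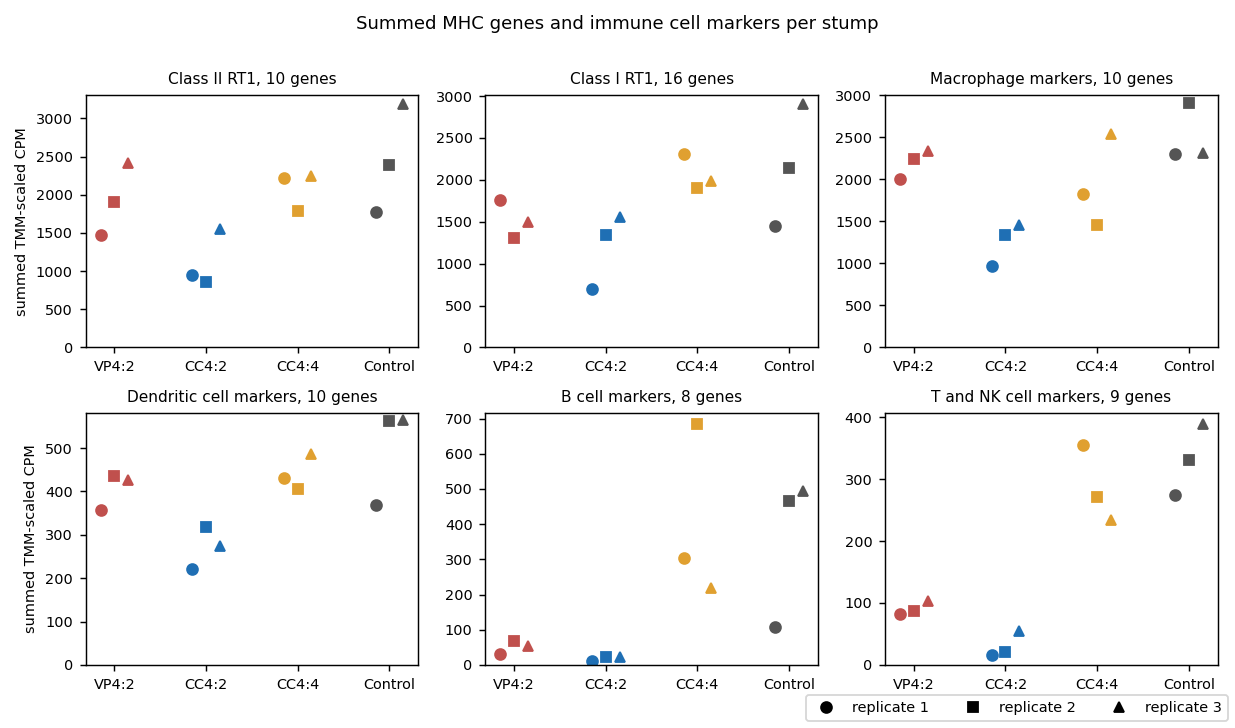
Summed TMM-scaled CPM (vertical axes, from 0, a scale per panel) of the class II RT1 genes, the class I RT1 genes and 4 lists of immune cell markers in each stump, by group. VP4:2 stumps have a macrophage sum of 2006 to 2337 CPM, above the 974 to 1456 CPM of CC4:2 stumps, while their B cell sum of 30.5 to 67.6 CPM stays under the 107 to 494 CPM of Control stumps.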

How the data were processed

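Poly(A) RNA of 12 stumps was sequenced as pairs of 150 bases from stranded libraries, per the labels' protocols. The deposited values are expected counts per gene, with no normalization recorded, and 9.44% to 11.12% of values per sample were not whole. HISAT2, StringTie, RSEM and DESeq2 are the tools listed in the submitters' processing notes. Versions, genome build, annotation and use of strand in counting are not given in the sources used here. All 12 deposited tables were identical, so 1 was read and 11 were not used. Symbols came from that table, since 0 of the Ensembl identifiers matched RefSeq.

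Expected counts were rounded, scaled by TMM, filtered with filterByExpr and fitted by quasi-likelihood in edgeR 4.0.16 (R 4.3.3, limma 3.58.1), with all 12 samples in 1 fit, no covariate and 8 residual degrees of freedom. P-values were adjusted by Benjamini-Hochberg over 15712 genes, and a gene was called at an adjusted p under 0.05. Standard errors (SE) were taken as the absolute log2 fold change over the root of the F statistic. Replicates differed by more than sampling noise (chi-square per degree of freedom 47.3 to 318).

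Deviations of same-numbered VP4:2 and CC4:2 stumps had correlations of 0.119 to 0.433, all above the threshold used of 0.1. The other pairs of groups gave -0.402 to 0.208, which overlaps that range. Differently numbered stumps were not compared and same-numbered stumps share a platform, so these values do not show a pairing. The labels state no pairing beyond the shared platform. Alternatives were other scalings, filters, DESeq2 1.42.0, limma-voom, a platform term, a replicate block, 1 platform, only the 6 samples compared, and leaving out each library. Values in every stump are given for Cd74, Ciita, the 7 class I pathway genes, class II RT1 genes averaging at least 1 CPM and the 6 class I RT1 genes of highest mean. Others are named by smallest p, up to 4 per comparison. Beyond that rule, the remaining called class I genes, RT1-M2's and RT1-A2's values in every stump and RT1-CE3 were chosen after their values were seen. The genes and lists were chosen with earlier results of these data known.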

Additional observations from a re-analysis of the deposited data

How the results depend on the processing

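Counts of called genes stayed within 1.5 times the reported count under RLE and upper quartile scaling, without immunoglobulin genes, under both other filters, with a platform term and under limma-voom, in all 5 comparisons. For VP4:2 against Control the count of 11 became 7 with only the 6 samples compared and 0 with the NovaSeq X Plus samples alone, and 5 to 16 with 1 library left out. Over all genes the count of 2964 became 1869 and 19, and 1166 to 4294, in the same fits. VP4:2 against CC4:2, at 4, became 2 with the NovaSeq X Plus samples alone and 7 under DESeq2, and 3 to 4 with 1 library left out. Over all genes its count of 979 became 202 and 1836, and 466 to 746, in the same fits. CC4:4 against Control, at 0, became 1 under DESeq2 (RT1-CE15, adjusted p = 0.030) and 1 without Control replicate 1 (the other RT1-CE15 row, adjusted p = 0.033), with a range of 0 to 1. Over all genes DESeq2 called 11 and the fit without Control replicate 1 called 295. Leaving out 1 library gave 18 to 29 for CC4:2 against Control and 15 to 22 for CC4:2 against CC4:4. Over all genes these ranges were 5244 to 7233 and 4218 to 5392. With each library left out in turn, 18 of the 24 calls of CC4:2 against Control were kept, 5 of 11 for VP4:2 against Control, 13 of 20 for CC4:2 against CC4:4 and 3 of 4 for VP4:2 against CC4:2.

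With replicate number as a block the counts were 25 for CC4:2 against Control, 0 for CC4:4 against Control, 21 for CC4:2 against CC4:4, 9 for VP4:2 against Control and 5 for VP4:2 against CC4:2. Over all genes they were 6334, 0, 5705, 2505 and 853, in the same order. The block added RT1-Bb (adjusted p = 0.047) in CC4:2 against Control and took away RT1-Db2 (adjusted p = 0.063) and Tap1 (adjusted p = 0.081) in VP4:2 against Control. Only for VP4:2 and CC4:2 were all same-number correlations above 0.1, which does not show a pairing.

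Of 1665 values of single genes under an alternative, 1515 kept direction and side of the threshold, 116 lost and 20 gained the call, and 14 turned direction, 0 of them called in either fit. All 14 were in VP4:2 against CC4:2, the comparison that held most of the uncalled genes followed. Outside the fits that leave out a library they were RT1-DOa (0.00092 with only the 6 samples), RT1-S3 (0.26 with the NovaSeq X Plus samples alone) and Tap2 (0.017 with the same samples). With 1 library left out, the folds ranged over -0.16 to 0.23 for RT1-DOa, -0.0029 to 0.66 for RT1-CE16 (ENSRNOG00000065254), -0.15 to 0.14 for RT1-M10-1, -0.31 to 0.22 for RT1-S3, -0.12 to 0.21 for RT1-T24-3, -0.012 to 0.35 for Tap1 and -0.082 to 0.22 for Tapbp. The causes were not tested. The 1665 values cover the called genes of each comparison and chosen uncalled genes. Uncalled genes were few in VP4:2 and CC4:4 against Control and absent in CC4:2 against CC4:4. Turns of direction in genes not followed are not in this count. In CC4:4 against Control 31 of the 35 folds were below 0, but 13 were with the NovaSeq X Plus samples alone. Depth limits the genes of fewest counts, such as RT1-M2, RT1-Db2 and RT1-Ha.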

Other observations

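Class I related genes that lie outside the RT1 locus were counted apart. Of the 5 tested, 2 rose in CC4:2 against Control and 0 fell, with a median log2 fold change of 0.78, beside 20.3% called higher, 23.2% called lower and a median of -0.045 over all genes. Procr, the endothelial protein C receptor, rose in CC4:2 against Control (1.30 ± 0.22) and fell in VP4:2 against CC4:2 (-1.03 ± 0.22). Mr1, which shows microbial vitamin metabolites to T cells, rose in CC4:2 against Control (0.91 ± 0.29). Of the 3 constitutive proteasome subunit genes, which Psmb8, Psmb9 and another inducible subunit replace, 0 passed in CC4:2 against Control (edgeR, median log2 fold change -0.30). Psmb6 came nearest (-0.32 ± 0.12 SE, edgeR adjusted p = 0.053). In CC4:2 against CC4:4 Psmb6 fell (-0.42 ± 0.12 SE, edgeR adjusted p = 0.020) and the median of the list was -0.41, where 20.7% of all genes were called lower.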
